A study of Danio rerio with 20 samples.

Results

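The Eph receptors and their membrane-bound ligands, the ephrins, were taken from the deposited gene count table of single zebrafish neurons by name, as every row whose gene name starts with epha, ephb, efna or efnb. This gave 28 of 18820 genes, made up of 8 EphA receptors, 7 EphB receptors, 8 ephrin-A ligands and 5 ephrin-B ligands. The rule used no measured value, although the family was chosen with earlier results of these data known. The libraries came from 10 synchronized and 10 non-synchronized neurons of the dorsal pallium, each 1 cell drawn into a glass pipette under two-photon imaging. All 20 neurons were taken from Tg(HuC:H2B-GCaMP6f) fish aged 4 to 5 weeks, in which the neuronal HuC promoter drives a nuclear calcium indicator, after exposure to conspecific alarm substance (CAS), a skin extract that signals danger. A cell was sorted by whether or not its calcium activity after CAS followed the synchronized oscillation of the region, and no neuron of an unexposed fish was analysed here. No label names the fish of a cell, so that each group stood as 1 sample, no test between the groups was made, and the SD given below is the spread between 10 cells.

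Eph receptors are receptor tyrosine kinases that bind ephrins on the surface of a touching cell. EphA receptors mostly bind ephrin-A proteins, which are held in the membrane by a lipid anchor, and EphB receptors mostly bind ephrin-B proteins, which cross the membrane and carry a PDZ-binding tail. EphA4 also binds ephrin-B. Both partners signal, the receptor forward into its own cell and the ephrin in reverse into the cell that displays it. The system is known for the guidance of axons and the ordering of neural maps, and in mature mammalian brain for the shaping of dendritic spines and synapses and for contacts between neurons and glia. Many zebrafish members exist as a and b copies left by the genome duplication of teleost fish.

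The libraries held 795838 to 2493351 counts in synchronized cells and 1131532 to 3144155 counts in non-synchronized cells, over 6878 to 10878 and 5588 to 9925 detected genes. Values below are counts scaled to the library total, in the usual CPM unit, which are not corrected for transcript length, so that levels were compared between cells and not between genes. The 11 listed neuronal markers summed to 5088 to 11482 CPM in synchronized cells and to 6053 to 10756 CPM in non-synchronized cells, so every library carried the label's neuronal signal. The 3 GABAergic markers (gad1b, gad2 and slc32a1) reached 682.6 CPM in synchronized cells and 4424 CPM in non-synchronized cells, whereas the 3 vesicular glutamate transporter genes spanned 165 to 734 CPM in synchronized cells and 0 to 695 CPM in non-synchronized cells. Red blood cell markers reached 11268 CPM in synchronized cells and 15017 CPM in non-synchronized cells, and microglia and leukocyte markers 289 CPM and 2799.9 CPM. In the synchronized cells 8 of the 12 microglia and leukocyte genes found had counts, with csf1rb, mpeg1.1, c1qc and laptm5 at 0, and in the non-synchronized cells all 12 had counts. The 6 libraries with more than 1000 summed CPM of either list (synchronized 4-1 and 5, non-synchronized 5, 6, 13 and 22) were therefore also left out as a set, which kept 8 synchronized and 6 non-synchronized cells. Radial glia and astrocyte markers were not in this rule. They reached 959 CPM in synchronized cells and 1889 CPM in non-synchronized cells, in cell 18, which was kept. Oligodendrocyte lineage markers reached 776 CPM and 340 CPM. The part of these other cell types in the member values was not tested. The set left out also differed in transmitter markers. It held synchronized cell 4-1, with 682.6 CPM of the GABAergic markers. It also held non-synchronized cells 5, 6, 13 and 22, with 4424, 2990, 750 and 579 CPM, while cell 18, with 3030 CPM, was kept. Values without the marker-rich libraries therefore also compare another mix of transmitter types, and the part of each was not tested.

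Most members with a row in the table were measured, though unevenly from cell to cell. A family gene without a row could not be counted. The rule found no row for efna4, which the RefSeq annotation lists next to efna3b. Of the 28 members 27 reached a mean of 1 CPM over all libraries, the exception being epha2a with 2 counts in 1 synchronized cell, and 22 reached a mean of 10 CPM in at least 1 group. Only epha6 and ephb3a had counts in all 20 cells, and 15 members had counts in 10 or more. A synchronized cell held counts of 14 to 22 members, with a mean of 17, and a non-synchronized cell of 11 to 19, with a mean of 14.2. Genes of any kind detected per cell numbered 6878 to 10878 in synchronized cells and 5588 to 9925 in non-synchronized cells. For 7 of the 27 measured members 1 cell contributed more than 50% of all the CPM, which was the case for 32.4% of the 14404 genes measured in the whole table. In every cell a number of members was at 0, and in all but non-synchronized cell 19-1, whose highest member was efna1a at 93.9 CPM, others passed 100 CPM, as the map of all members by cell shows.

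**Figure D1:**
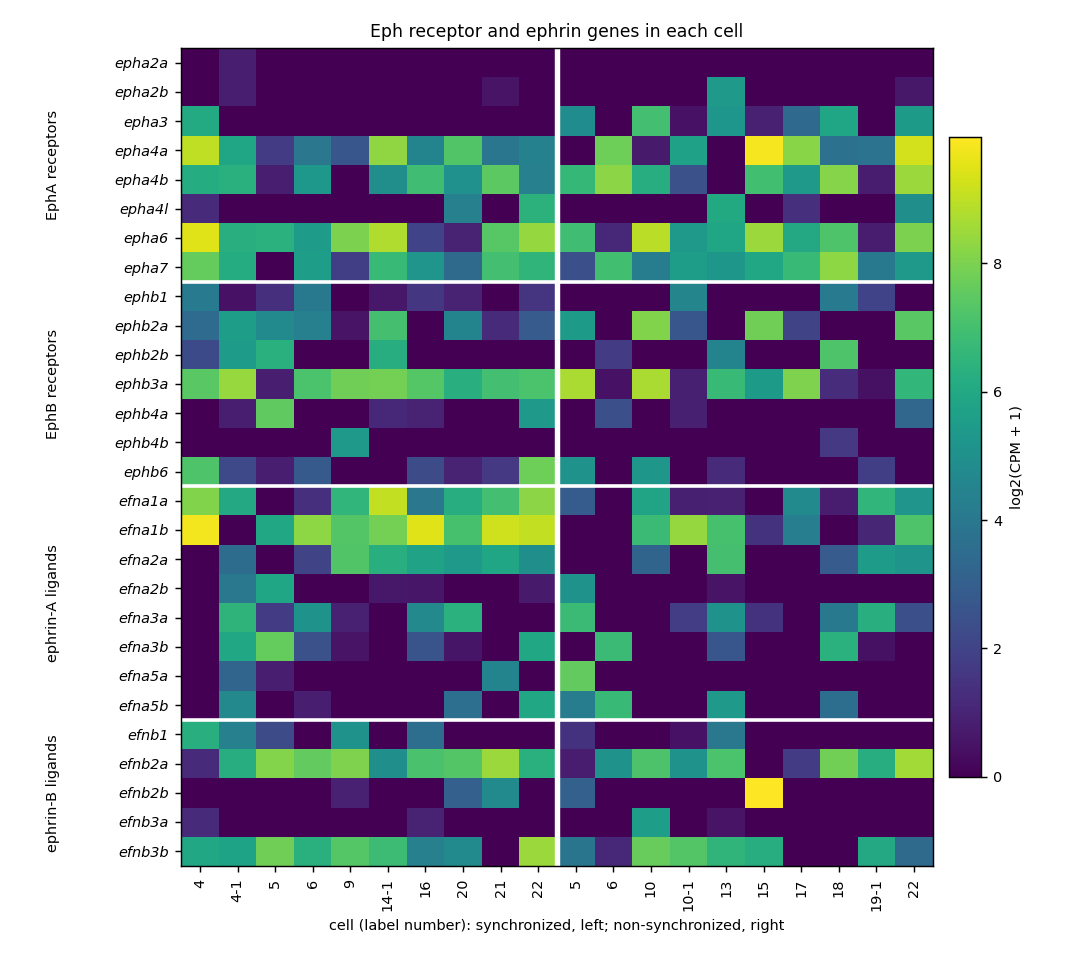
Level of the 28 Eph receptors and ephrins (rows, by class) in each cell (columns, synchronized cells on the left and non-synchronized cells on the right), as log2(CPM + 1). At 10 CPM or more, efna1a is in 8 synchronized and 4 non-synchronized cells, efna1b in 9 and 5, and epha3 in 1 and 5.

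Between the groups, 15 measured members had the higher mean in synchronized cells and 12 in non-synchronized cells. With a fold change defined as (mean CPM synchronized + 1) over (mean CPM non-synchronized + 1), 6 members were at least 2-fold higher in synchronized cells, 22.2% of those measured, against 26.7% of all measured genes. At least 2-fold lower were 7, or 25.9%, against 23.3% of all measured genes. As a family, the members therefore passed 2-fold about as often as any gene did in these cells. The median log2 fold change was 0.21 over members and 0.06 over all measured genes. The classes were not alike in this: the median was -0.92 for EphA receptors, 0.26 for EphB receptors, 0.81 for ephrin-A ligands and 0.60 for ephrin-B ligands. The EphB median was 2.08 without non-synchronized cell 18 and the ephrin-A median -0.16 without synchronized cell 5. The EphA values were mostly nearer 0 or of the other sign without the marker-rich libraries, as given below. No member separated the groups fully, as did 0.00694% of measured genes.

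Of the 13 members past 2-fold, 6 stayed past it whichever single cell was left out. They were efna1a, efna1b, efnb1, ephb4a and ephb6 on the higher side and epha3 on the lower side. For each of these 6 the difference between the means was smaller than the larger of its group SDs. With median CPM, ephb4a came to a log2 fold change of 0.49, and its synchronized mean rested on cells 5 and 22. For 5 others of the 13 (epha2b, ephb4b, efna5a, efnb2b and efnb3a) the sign turned when 1 cell was left out. The shares of all measured genes that stay or turn in this way were not computed.

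Summed by class, the ephrin-A ligands differed most in level between the groups, and nearly all of that came from the ephrin-A1 copies. efna1a, which encodes ephrin-A1a, ran from 0 to 534 CPM in synchronized cells with a median of 83.2 CPM, against 0 to 93.9 CPM with a median of 3.70 CPM in non-synchronized cells. It passed 10 CPM in 8 synchronized cells and in 4 non-synchronized cells, and all non-synchronized cells lay within the synchronized range. The means were 148 ± 171 CPM in synchronized cells and 21.95 ± 31.7 CPM in non-synchronized cells (SD, n = 10 cells each), 6.72-fold higher in synchronized cells on the plain means (log2 fold change 2.69). Its copy efna1b ran from 0 to 878 CPM with a median of 275 CPM in synchronized cells, against 0 to 331 CPM with a median of 9.96 CPM in non-synchronized cells. At least 100 CPM of efna1b was found in 8 synchronized cells, all but 4-1, which was at 0, and 5, at 62.1 CPM, and in 4 non-synchronized cells (10, 10-1, 13 and 22). The means were 363 ± 299.8 CPM and 74.2 ± 109 CPM (SD, n = 10 cells each), 4.89-fold higher in synchronized cells on the plain means (log2 fold change 2.27). For both copies the difference between the means was smaller than the SD of the synchronized cells. Summed over each group's reads, efna1b was at 329 CPM in synchronized cells (95% exact Poisson interval 321 to 338) and at 80.9 CPM in non-synchronized cells (77.1 to 84.8), intervals that cover counting error only. The non-synchronized means leaned on 1 cell each: without non-synchronized cell 19-1 that of efna1a was 13.96 CPM, and without 10-1 that of efna1b was 45.7 CPM. The log2 fold changes were then 3.31 and 2.96. Without synchronized cell 14-1 the synchronized mean of efna1a was 105 CPM (log2 fold change 2.20). Without synchronized cell 4 that of efna1b was 305 CPM (log2 fold change 2.03). Without the 6 marker-rich libraries the means were 177 CPM in synchronized cells and 29.5 CPM in non-synchronized cells for efna1a, and 446 CPM and 77.0 CPM for efna1b.

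Many cells held both copies. How many would do so from the frequency of each copy alone was not computed. At 10 CPM or more, 7 synchronized and 3 non-synchronized cells held both efna1a and efna1b, no synchronized and 4 non-synchronized cells held neither, and the rest held 1 of the copies. Added together, the pair came to 510.3 ± 376 CPM in synchronized cells and 96.1 ± 109 CPM in non-synchronized cells, 5.31-fold higher in synchronized cells. The other 6 ephrin-A genes added together came to 119 ± 78.1 CPM and 106.5 ± 120.3 CPM, a 1.12-fold difference.

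**Figure D2:**
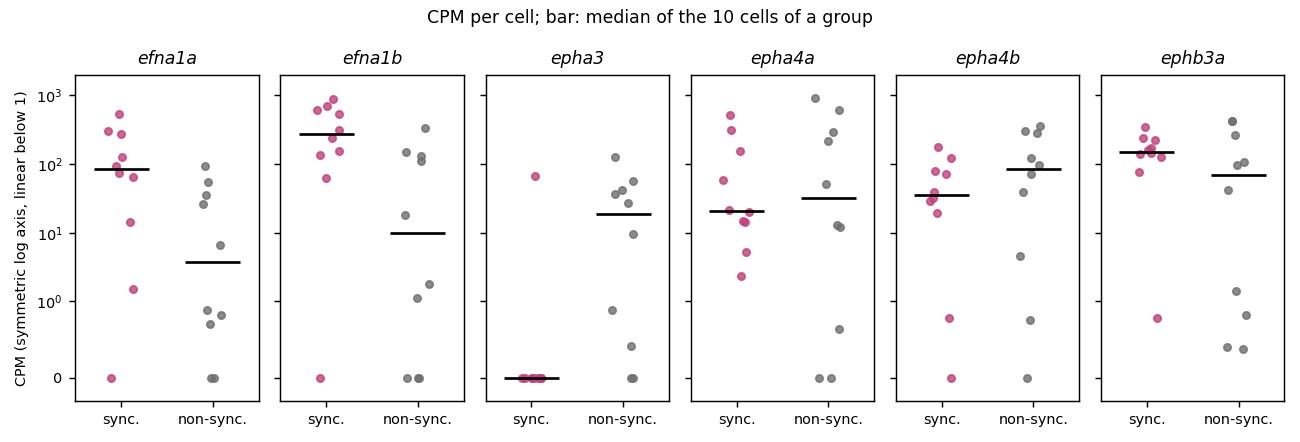
CPM per cell (symmetric log axis) of efna1a, efna1b, epha3, epha4a, epha4b and ephb3a, with synchronized cells left of non-synchronized cells in each panel. Each dot is 1 cell and the bar is the median, which for efna1b was 275 CPM in synchronized cells and 9.96 CPM in non-synchronized cells.

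Among the other ephrin-A genes, efna2a, a copy of the gene for ephrin-A2, a ligand of the retinal map, ran from 0 to 153 CPM in synchronized cells with a median of 35.1 CPM, against 0 to 128 CPM with a median of 3.18 CPM in non-synchronized cells. It was detected in 8 synchronized and 5 non-synchronized cells, and its means of 42.3 ± 47.3 CPM and 22.2 ± 40.6 CPM stayed within 2-fold (log2 fold change 0.90). Without the marker-rich libraries these means were 51.6 CPM in synchronized cells and 9.76 CPM in non-synchronized cells, past 2-fold, with non-synchronized cell 13, at 128 CPM, among the cells left out. efna3a, whose mammalian counterpart on astrocytes binds EphA4 of neurons, spanned 0 to 88.2 CPM with a median of 1.62 CPM in synchronized cells and 0 to 110.2 CPM with a median of 3.45 CPM in non-synchronized cells, and its means of 23.3 ± 34.8 CPM and 24.3 ± 38.5 CPM were nearly the same (log2 fold change -0.06). efna3b spanned 0 to 197 CPM with a median of 2.54 CPM in synchronized cells and 0 to 111 CPM with a median of 0 CPM in non-synchronized cells. Its means were 33.1 ± 62.9 CPM and 19.9 ± 41.1 CPM, a log2 fold change of 0.71 that was -0.53 without the marker-rich libraries, synchronized cell 5 being the one at 197 CPM.

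The ephrin-A5 genes, whose mammalian counterpart sets up the retinal map, and efna2b were carried by few cells. efna5a had counts in 3 synchronized cells, of at most 21.5 CPM, and in 1 non-synchronized cell, number 5, at 189 CPM. Its log2 fold change was -2.29 with that cell and 2.03 without it. efna5b had counts in 4 cells of each group, of at most 59.7 CPM in synchronized cells and 108 CPM in non-synchronized cells, with means of 9.69 ± 19.4 CPM and 17.8 ± 34.4 CPM. Its direction turned without the marker-rich libraries, where the means were 9.01 CPM in synchronized cells and 1.88 CPM in non-synchronized cells, and without non-synchronized cell 6 alone, at a log2 fold change of 0.28. efna2b was found in 5 synchronized and 2 non-synchronized cells, of at most 59.0 CPM and 33.3 CPM.

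The EphA receptors leaned the other way, 5 of 7 measured genes having the higher mean in non-synchronized cells, and 3 of these, or 42.9%, past 2-fold, against 23.3% of all measured genes. Of these 3, epha3 stayed past 2-fold with any 1 cell left out and epha4b and epha2b did not. The lean was weaker without the marker-rich libraries, a setting that also left out cells high in GABAergic markers, as given above. The log2 fold changes were then -1.80 for epha3, -0.69 for epha4a, -0.52 for epha4b and -0.25 for epha7. Those of epha2b, epha6 and epha4l were 0.076, 0.42 and 3.47, so that on the lower side only epha3 was past 2-fold. epha3, an axon guidance receptor, had counts in 1 synchronized cell, number 4, at 67.9 CPM, against 8 non-synchronized cells, where it ran from 0 to 125 CPM with a median of 18.5 CPM. The share of cells with a count was 10% in synchronized cells (95% exact binomial interval 0.253 to 44.5) and 80% in non-synchronized cells (44.4 to 97.5). These intervals take the cells of a group as independent draws, although no fish is named, and are no test between the groups. Its means were 6.79 ± 21.5 CPM and 29.9 ± 39.2 CPM (SD, n = 10 cells each, log2 fold change -1.99), the synchronized mean being 0 CPM without cell 4 and the non-synchronized mean 19.3 CPM without cell 10. epha3 was the 1 member found in at least 5 more non-synchronized than synchronized cells, a gap that 0.555% of measured genes showed.

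The EphA4 genes, which encode the receptors with the broadest ligand choice, were found in most cells. epha4a ran from 2.36 to 511 CPM with a median of 20.8 CPM in synchronized cells, against 0 to 916 CPM with a median of 31.6 CPM in non-synchronized cells. Its means of 112 ± 172 CPM and 212 ± 317 CPM differed by less than the spread between cells (log2 fold change -0.92). Without synchronized cell 4 the synchronized mean was 67.3 CPM and the log2 fold change -1.64, and without non-synchronized cell 15 the other mean was 133 CPM and the log2 fold change -0.25. epha4b ran from 0 to 177 CPM with a median of 35.3 CPM in synchronized cells, against 0 to 351 CPM with a median of 84.9 CPM in non-synchronized cells. Its means were 56.8 ± 56.4 CPM and 128 ± 135 CPM (log2 fold change -1.15), and without the marker-rich libraries 61.0 CPM and 87.8 CPM, no longer past 2-fold. It also came to within 2-fold without non-synchronized cell 6, 18 or 22, the log2 fold change being -0.84 without the last. The 2 copies together came to 169 ± 179 CPM in synchronized cells and 339 ± 387 CPM in non-synchronized cells, and at 10 CPM or more 8 synchronized and 5 non-synchronized cells held both.

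epha6 and epha7, receptors that bind ephrin-A ligands, had means closer together than the spread between cells. epha6 was in every cell, at 0.929 to 723 CPM with a median of 124 CPM in synchronized cells and at 0.751 to 494 CPM with a median of 90.5 CPM in non-synchronized cells. Its means were 213 ± 232 CPM and 154 ± 165 CPM (log2 fold change 0.47). epha7 ran from 0 to 195 CPM with a median of 59.4 CPM in synchronized cells and from 4.46 to 305 CPM with a median of 43.2 CPM in non-synchronized cells, with means of 68.5 ± 62.5 CPM and 75.3 ± 89.0 CPM (log2 fold change -0.13). epha4l was found in 3 cells of each group, of at most 83.6 CPM in synchronized cells and 64.6 CPM in non-synchronized cells. Its means were 10.4 ± 26.4 CPM and 9.65 ± 21.5 CPM, but 13.04 CPM and 0.263 CPM without the marker-rich libraries. epha2b was at a mean of 0.123 CPM in synchronized cells and 4.04 CPM in non-synchronized cells, where cell 13 held 39.8 CPM and the mean without it was 0.061 CPM.

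Among the EphB receptors, ephb3a, whose mouse counterpart guides commissural axons, was in every cell. It ran from 0.786 to 340.1 CPM with a median of 151 CPM in synchronized cells, against 0.376 to 420.5 CPM with a median of 69.2 CPM in non-synchronized cells, and passed 10 CPM in 9 synchronized and 6 non-synchronized cells. Its means of 162 ± 92.4 CPM and 134 ± 170 CPM overlapped within the spread (log2 fold change 0.26). ephb6, which encodes a receptor whose mammalian form lacks kinase activity, ran from 0 to 217 CPM with a median of 2.88 CPM in synchronized cells, against 0 to 37.8 CPM with a median of 0 CPM in non-synchronized cells. It was detected in 8 synchronized and 4 non-synchronized cells, with means of 38.1 ± 77.6 CPM and 7.44 ± 14.7 CPM (log2 fold change 2.21). Synchronized cells 22 and 4 carried most of that, at 217 CPM and 147 CPM, and without cell 22 the synchronized mean was 18.3 CPM. In non-synchronized cells the mean without cell 10 was 4.06 CPM.

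ephb4a, the zebrafish copy of a receptor best known from veins, ran from 0 to 185 CPM in synchronized cells with a median of 0.401 CPM, against 0 to 8.83 CPM with a median of 0 CPM in non-synchronized cells. Its means were 22.8 ± 58.3 CPM and 1.41 ± 2.95 CPM (log2 fold change 3.31). The 185 CPM belonged to synchronized cell 5, which also held 11268 CPM of red blood cell markers, and without that cell the log2 fold change was 1.27. Synchronized cell 22 held 40.2 CPM, and no other synchronized cell held more than 1.14 CPM. The value without both cells was not computed. Without non-synchronized cell 22 the mean of that group was 0.581 CPM. Of the 15 listed endothelial and pericyte genes 9 were found, 6 with counts in synchronized cells and 8 in non-synchronized cells, summing to at most 59.1 CPM and 85.2 CPM per cell, and flt1, tie1 and sox17 were at 0 in every synchronized cell. The part of vascular RNA in the ephb4a value was not tested. ephb4b was found in 1 cell of each group, at 39.6 CPM in synchronized cell 9 and at 2.12 CPM in non-synchronized cell 18.

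ephb2a, one of the EphB receptors known from mammalian excitatory synapses, ran from 0 to 130.02 CPM with a median of 14.6 CPM in synchronized cells, against 0 to 270.0 CPM with a median of 4.27 CPM in non-synchronized cells. It was detected in 9 synchronized and 6 non-synchronized cells. The means were 26.0 ± 39.2 CPM in synchronized cells and 71.5 ± 107 CPM in non-synchronized cells (log2 fold change -1.42), so that mean and median pointed in opposite directions, and without non-synchronized cell 10, the one at 270.0 CPM, it came to within 2-fold at -0.90. Without synchronized cell 14-1 it was -2.23. ephb2b was found in 4 synchronized and 3 non-synchronized cells, of at most 79.4 CPM and 147 CPM, with means of 19.96 ± 32.6 CPM and 17.2 ± 46.3 CPM. It had no steady direction, the log2 fold change being 2.51 without non-synchronized cell 18 and -1.26 without the marker-rich libraries. ephb1, also a guidance receptor, was the 1 member found in at least 5 more synchronized than non-synchronized cells, with 8 against 3 and 2.27% of measured genes showing such a gap. Its levels were low, with a median of 1.25 CPM in synchronized cells and 0 CPM in non-synchronized cells, and its means of 3.91 ± 6.34 CPM and 4.23 ± 8.27 CPM did not follow the detection. The gap shrank below 5 cells when 5 counts were asked for in place of 1, or when any 1 of the 8 synchronized cells with a count was left out.

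Of the 5 ephrin-B ligands, efnb2a and efnb3b were within 2-fold, efnb1 was higher past it in synchronized cells, and efnb2b and efnb3a were lower past it. efnb2a, a copy of the ephrin-B2 gene known from arteries and synapses, ran from 1.26 to 357 CPM with a median of 147 CPM in synchronized cells, against 0 to 379.6 CPM with a median of 53.0 CPM in non-synchronized cells, and its means were 156 ± 116 CPM and 103 ± 123 CPM (log2 fold change 0.60). efnb3b, a copy of the gene for ephrin-B3, a midline barrier to axons in mice, ran from 0 to 352 CPM with a median of 70.8 CPM in synchronized cells, against 0 to 198 CPM with a median of 38.6 CPM in non-synchronized cells, and its means were 109 ± 109 CPM and 60.6 ± 70.5 CPM (log2 fold change 0.83). Both differences lay within the spread between cells and within 2-fold. efnb1 was past it, with 0 to 75.4 CPM and a median of 1.97 CPM in synchronized cells, against 0 to 15.05 CPM and a median of 0 CPM in non-synchronized cells. It was detected in 5 synchronized and 3 non-synchronized cells, with means of 14.3 ± 24.2 CPM and 1.72 ± 4.71 CPM, 8.33-fold higher in synchronized cells on the plain means (log2 fold change 2.49). Without synchronized cell 4 the synchronized mean was 7.52 CPM, and leaving out cell 13 of the non-synchronized group brought its mean to 0.237 CPM.

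The copies efnb2b and efnb3a were nearly silent outside 1 cell each. efnb2b was found in 3 synchronized cells, of at most 25.4 CPM, and in 2 non-synchronized cells, 1 of which, number 15, held 1000.41 CPM. Its means were 3.37 ± 8.08 CPM in synchronized cells and 101 ± 316 CPM in non-synchronized cells, where the mean without that cell was 0.801 CPM, so the log2 fold change of -4.54 became 1.28. efnb3a averaged 0.226 CPM in synchronized cells and 4.82 CPM in non-synchronized cells, of which cell 10 held 47.7 CPM. The plot of log2 fold changes with their leave-one-out ranges shows this dependence for each member.

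**Figure D3:**
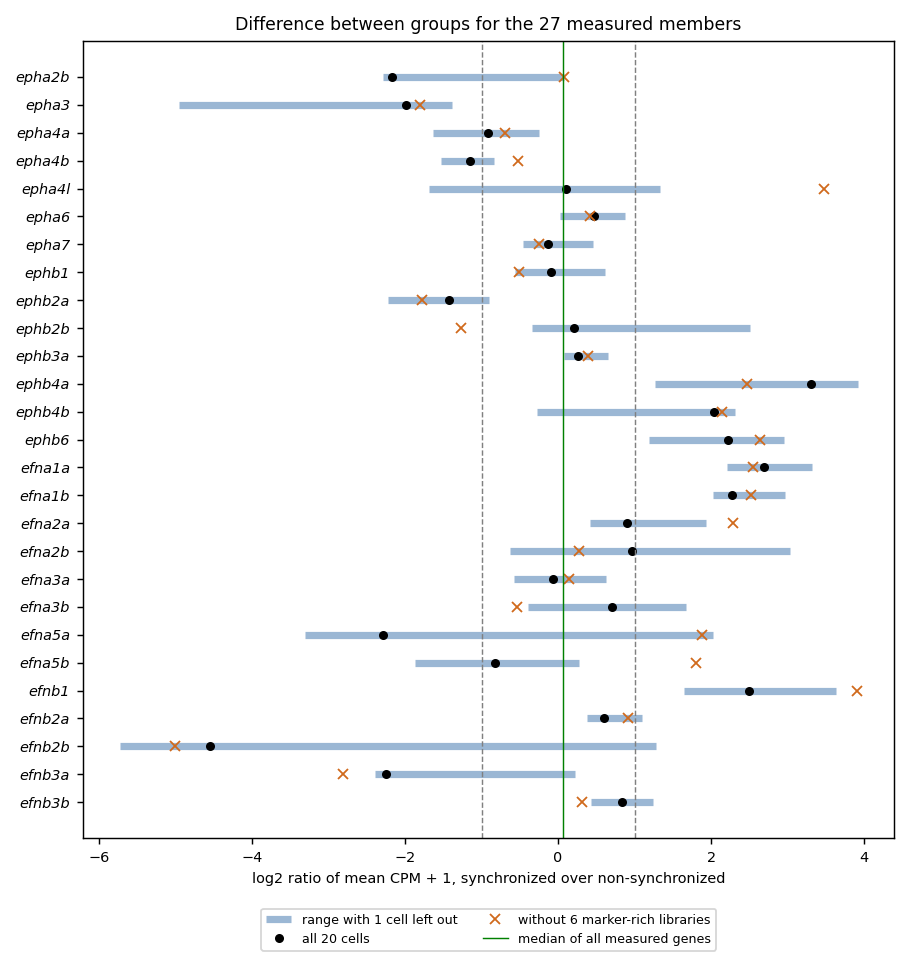
Log2 fold change of each measured member, synchronized over non-synchronized (mean CPM + 1). Black dots use all 20 cells, blue bars span the values with each cell left out in turn, orange crosses leave out the 6 marker-rich libraries, dashed lines mark 2-fold and the green line the median of all measured genes (0.06). The bars of 13 of the 27 members cross 0, among them efna5a, efnb2b, efnb3a, epha2b and ephb4b. The bars of efna1a and efna1b stay above 2. The share of all measured genes whose bars cross 0 was not computed.

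Adding up each class per cell gave the clearest order. The ephrin-A sum ran from 271 to 1147 CPM with a median of 604.5 CPM in synchronized cells, against 3.54 to 357 CPM with a median of 217 CPM in non-synchronized cells. Of the non-synchronized cells 7 of 10 lay below the lowest synchronized cell, and of the synchronized cells 6 of 10 lay above the highest non-synchronized cell. The means were 629 ± 323 CPM and 203 ± 122 CPM (SD, n = 10 cells each), 3.11-fold higher in synchronized cells, and 2.80-fold to 3.39-fold with any 1 cell left out. Without the marker-rich libraries the means were 713 CPM and 148 CPM, 4.82-fold higher in synchronized cells. The cells left out included the lowest synchronized sum (cell 4-1, 271 CPM) and the highest non-synchronized sum (cell 5, 357 CPM). The EphA receptor sum spanned 84.9 to 1569 CPM with a median of 277 CPM in synchronized cells and 29.7 to 1456 CPM with a median of 574 CPM in non-synchronized cells, with means of 467 ± 456 CPM and 612 ± 487 CPM. The EphB sum averaged 276 ± 128 CPM and 236 ± 230 CPM, and the ephrin-B sum 283 ± 146 CPM and 271 ± 314 CPM. These 3 sums differed by less than the spread between cells.

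The ephrin-A sum divided by the EphA sum in the same cell, a ratio chosen after the class sums had been seen, had a median of 1.63 in synchronized cells and 0.294 in non-synchronized cells. It ran from 0.731 to 4.44 in synchronized cells and from 0.00243 to 7.25 in non-synchronized cells, 6 of which lay below the lowest synchronized cell. The groups overlapped through non-synchronized cells such as 19-1, which held the highest ratio of all and the lowest EphA sum, at 29.7 CPM. The ephrin-B sum over the EphB sum had medians of 1.26 in synchronized cells and 1.67 in non-synchronized cells, with ranges of 0.325 to 2.96 and 0.00890 to 22.8. The plot of class sums shows the non-synchronized cells with low ephrin-A mostly at high EphA, and the synchronized cells with high ephrin-A over a wide span of EphA.

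**Figure D4:**
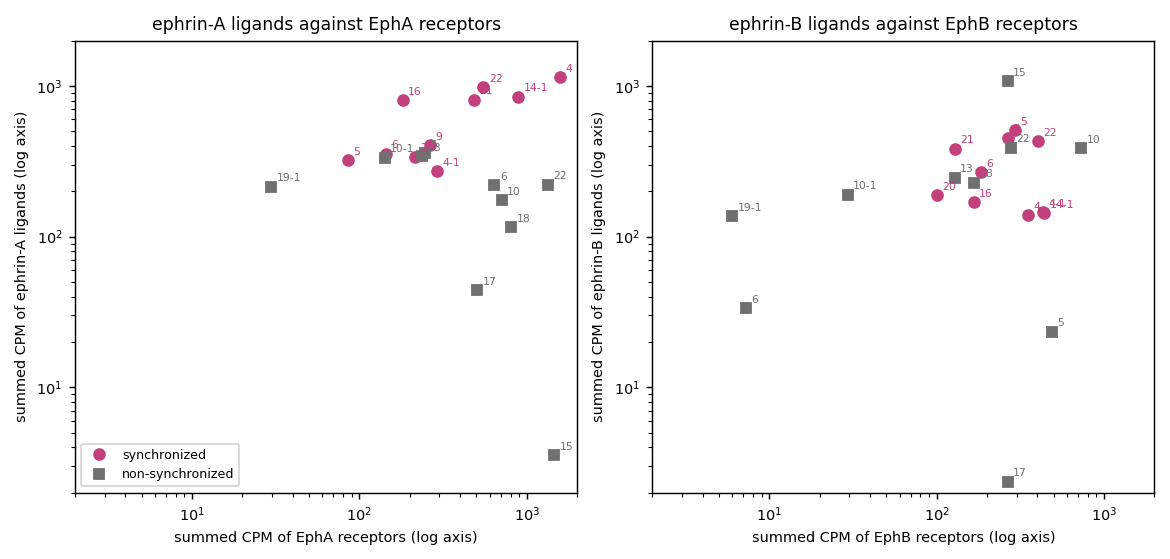
Summed CPM of receptors (x axis) and of their ligand class (y axis) in each cell, on log axes, for ephrin-A against EphA and for ephrin-B against EphB. Circles are synchronized cells and squares non-synchronized cells, numbered by label. The ephrin-A sums of synchronized cells lie between 271 and 1147 CPM, and 7 of 10 non-synchronized cells lie below that range.

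Receptors and ligands of a class were found in the same neuron in nearly all cells. The call asked for any 1 gene of each class, and how often other gene sets of such sizes meet it was not computed. At 10 CPM or more, at least 1 EphA receptor and 1 ephrin-A ligand were present in 10 of 10 synchronized and 9 of 10 non-synchronized cells, the exception being cell 15, which held receptors only. At least 1 EphB receptor and 1 ephrin-B ligand were present in 10 of 10 synchronized and 7 of 10 non-synchronized cells. Of the others, cell 17 held EphB receptors only and cells 6 and 19-1 held ephrin-B only. A synchronized cell held a median of 4 EphA and 3 EphB receptors with 3.5 ephrin-A and 2 ephrin-B ligands, against 4, 2, 2.5 and 1.5 in a non-synchronized cell.

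Duplicate copies differed in how many cells held 1 or both of them. The shared number depends on how common each copy is, and the number expected from that was not computed. Over all 20 cells at 10 CPM or more, epha4a and epha4b were together in 13 cells, and only 1 of them in 4. efna1a and efna1b were together in 10. In other pairs 1 copy held most cells: efnb2a alone was in 15 cells and efnb2b alone in 1, with both in 1, and efnb3b alone was in 14 cells, efnb3a alone in none, with both in 1. The pairs efna2, efna3 and ephb2 had both copies in 1, 2 and 3 cells.

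Members were also set against the transmitter markers of the cell, which themselves differed between the groups. Over 56 rank correlations between members or class sums and marker sums, computed across the 20 cells as a description, Spearman's coefficient ran from -0.68 to 0.60. efna1b had the lowest value, with the GABAergic sum, and the coefficient was -0.44 within synchronized cells and -0.61 within non-synchronized cells. In synchronized cells that sum was mostly near 0, with a median of 1.51 CPM, and 682.6 CPM in cell 4-1, where efna1b was at 0. The copy efna1a had a coefficient of -0.24 with the same sum. With the vesicular glutamate transporter sum, efna1b was at 0.32, but at -0.25 within synchronized and 0.18 within non-synchronized cells. efnb3b had the highest, with the vesicular glutamate transporter sum, at 0.62 within synchronized cells and 0.52 within non-synchronized cells. The EphA receptor sum had a coefficient of -0.64 with the summed pallial identity markers, -0.33 within synchronized cells and -0.73 within non-synchronized cells. With the microglia and leukocyte sum, the ephrin-A sum had a coefficient of 0.12, at -0.10 within synchronized cells and 0.77 within non-synchronized cells. The EphB sum had one of 0.02 with that marker sum, at 0.82 within synchronized cells and -0.31 within non-synchronized cells. These points share library depth and CPM scaling, and the part of transmitter type in the efna1b difference was not tested.

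The genes that carry the Eph signal were read from 5 lists of 114 genes, of which 97 were found and 89 measured. Of these, 43 had the higher mean in synchronized cells and 46 in non-synchronized cells, with 14 at least 2-fold higher (15.7%, against 26.7% of all measured genes) and 19 at least 2-fold lower (21.3%, against 23.3%). Their median log2 fold change was -0.05. The signalling partners were thus split nearly evenly between the groups. For the single lists below, genes past 2-fold are given as counts and their shares were not computed. Each count stands beside the same 26.7% higher and 23.3% lower of all measured genes.

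The forward signalling list, from adaptors and guanine exchange factors to cytoskeletal kinases, had 37 measured genes, 8 of them higher and 5 lower past 2-fold, with a median of 0.03. crk, an adaptor that Eph receptors recruit, averaged 78.2 ± 96.0 CPM in synchronized cells and 9.79 ± 14.8 CPM in non-synchronized cells, with medians of 30.2 CPM and 3.47 CPM and counts in 9 cells of each group. Without non-synchronized cell 19-1 the mean of that group was 5.54 CPM. crkl, its relative, averaged 19.4 ± 35.4 CPM and 0.479 CPM, the synchronized mean being 10.6 CPM without cell 5. rasa1a, a Ras GTPase-activating protein bound by EphB2 in mammals, averaged 17.6 ± 39.5 CPM in synchronized cells, or 5.61 CPM without cell 4, and 0.284 CPM in non-synchronized cells. rac1b, a Rac GTPase gene, averaged 1.40 CPM and 26.3 ± 82.6 CPM, the non-synchronized mean being 0.175 CPM without cell 22.

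Of the 11 measured genes for receptor turnover and scaffolding, 1 was higher and 4 lower past 2-fold, with a median of -0.52. acp1, a low molecular weight tyrosine phosphatase, averaged 31.3 ± 33.9 CPM in synchronized cells and 85.9 ± 87.4 CPM in non-synchronized cells, with medians of 19.2 CPM and 67.0 CPM. shdb, an SH2 domain adaptor gene, averaged 70.5 ± 92.6 CPM and 12.4 ± 18.6 CPM, with counts in 6 and 4 cells. ptprfa, a receptor tyrosine phosphatase gene, averaged 8.89 CPM in synchronized cells and 72.2 ± 134 CPM in non-synchronized cells, or 31.5 CPM without non-synchronized cell 15, and the mean of synchronized cells was 1.84 CPM without cell 5. anks1ab, which encodes a scaffold of the kind that binds Eph receptors, was high in non-synchronized cell 6 and averaged 0.211 CPM and 46.3 ± 140.2 CPM, or 1.96 CPM without it.

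For reverse signalling through ephrin-B, 18 genes were measured, 1 higher and 3 lower past 2-fold, with a median of -0.52 that was -0.08 without the marker-rich libraries. rgs3a, a G protein regulator whose mammalian form binds ephrin-B, averaged 30.3 ± 61.1 CPM in synchronized cells and 125 ± 188 CPM in non-synchronized cells, with medians of 1.55 CPM and 55.9 CPM. Leaving out cell 4-1 brought the synchronized mean to 14.5 CPM, and leaving out cell 10 brought the other to 70.4 CPM. stat3, a transcription factor, had counts in 2 synchronized and 9 non-synchronized cells, with means of 13.2 ± 40.7 CPM and 78.8 ± 115 CPM. Leaving out cell 4-1 brought the synchronized mean to 0.349 CPM, and that of non-synchronized cells was 47.4 CPM without cell 18. grip1, a PDZ scaffold of glutamate receptors and ephrin-B, averaged 34.8 ± 37.0 CPM and 69.4 ± 104 CPM (log2 fold change -0.98), within 2-fold. Its relative grip2a averaged 10.6 ± 30.2 CPM in synchronized cells, or 1.09 CPM without cell 20, and 0.108 CPM in non-synchronized cells.

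The proteases that shed ephrins and Eph receptors were split, with 2 of 8 measured genes higher and 3 lower past 2-fold. adam10a, a sheddase of ephrins in mammals, averaged 10.9 ± 13.6 CPM in synchronized cells and 26.8 ± 39.0 CPM in non-synchronized cells, whereas its medians were 5.03 CPM and 2.56 CPM. adam9, a related metalloprotease gene, averaged 36.8 ± 57.1 CPM and 14.5 ± 22.7 CPM, with counts in 9 and 5 cells. psen2, a gamma-secretase subunit gene, averaged 4.71 CPM in synchronized cells and 15.1 ± 32.0 CPM in non-synchronized cells. Its medians of 1.40 CPM and 0.347 CPM went the other way. So did its means without the marker-rich libraries, at 5.88 CPM in synchronized cells and 4.09 CPM in non-synchronized cells. Single cells weighed on each of these, the mean of non-synchronized cells being 17.1 CPM for adam10a without cell 17 and 5.37 CPM for psen2 without cell 5, and that of synchronized cells 21.9 CPM for adam9 without cell 14-1.

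Of the 15 measured co-receptors and binding partners, 2 were higher and 4 lower past 2-fold, yet their median was 0.59. nrp1a, a neuropilin co-receptor for semaphorins and VEGF, had no count in any synchronized cell, against counts in 6 non-synchronized cells of 0 to 303 CPM with a median of 20.003 CPM and a mean of 80.7 ± 117 CPM. The 0 of 10 synchronized cells allows a share of cells with a count of up to 30.8% (95% exact binomial), if the cells are taken as independent draws. The non-synchronized cells held 1328 counts. Summed over the reads of that group, nrp1a was at 61.7 CPM (95% exact Poisson interval 58.4 to 65.1). With 3 counts in all synchronized libraries together taken as the floor, or 0.167 CPM, that point value was 369-fold above the floor. The 369-fold sets a point value against a chosen floor. It is therefore no lower limit that covers counting error, and it does not cover the spread between cells. The copy nrp1b averaged 6.15 ± 19.1 CPM and 41.4 ± 101 CPM, the second value being 9.92 CPM once cell 22 of that group was left out. Without synchronized cell 5 the synchronized mean was 0.103 CPM. fgfr1a, a fibroblast growth factor receptor, averaged 11.9 ± 16.7 CPM in synchronized cells and 60.1 ± 88.5 CPM in non-synchronized cells, or 34.1 CPM without non-synchronized cell 5. gfra1b, a GDNF receptor gene, averaged 37.6 ± 94.4 CPM and 7.70 ± 24.1 CPM, carried by 1 cell in each group, as without synchronized cell 21 its mean was 8.71 CPM and without non-synchronized cell 18 it was 0.091 CPM.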

How the data were processed

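The deposited table holds whole-number counts of reads per gene, which the authors made from 20 single-cell libraries prepared with a stranded TruSeq mRNA kit. The build danRer11 and edgeR 3.14.0 are named in the submitters' processing notes, while aligner, counter and strand setting are not given in the sources used. Counts were divided by the library total to give CPM. A gene was measured at a mean of at least 1 CPM over all libraries, detected in a cell at 1 count or more, and past the fold at 2-fold on means with 1 CPM added. Groups came from the labels, and no test was run because no fish is named.

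Members, lists and marker genes were chosen with earlier results of these data known. Members with a mean of at least 10 CPM in a group were described in full, and from each pathway list up to 4 measured genes with the largest log2 fold change at 10 CPM or more were named. The values of 1 gene so chosen are not reported here. The pathway symbol rock2b names more than 1 row and was left out. A row named EPHB3 in capitals, with 2 counts in all, was not covered by the rule. In the RefSeq annotation of GRCz12tu, 4 of the 28 members (epha2a, ephb2b, efna3a and efnb3b) overlap another coding gene, so their reads are uncertain. Cells whose labels share a number (synchronized 4 and 4-1, non-synchronized 10 and 10-1) differed by 100.2 and 154 in chi-square per degree of freedom, against 59.5 to 238 for other pairs, and each was kept as a cell. Numbers 5, 6 and 22 occur in both groups, with no statement of what a number marks. No sequence or transcript length was used here.

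Alternatives were TMM (edgeR 4.0.16) and poscounts (DESeq2 1.42.0) scaling, summed counts, median CPM, other pseudocounts and filters, thinned counts, averaged or left-out suffixed libraries and each cell left out. Leaving out the libraries with more than 1000 CPM of microglia or red blood cell markers was added after the data had been seen. Intervals are 95% exact ones. Those of counts cover counting error only, and those of shares take the cells of a group as independent draws. Python 3.11.15, pandas 2.3.3, numpy 2.4.6, scipy 1.17.1, matplotlib 3.10.9 and R 4.3.3 were used, and the scripts were tested on simulated data.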

Additional observations from a re-analysis of the deposited data

Results flagged for a closer look

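In groups of 10 cells, a cell was picked out where its gap to the next exceeded the 95% critical value of Dixon's ratio of gap to range. For normally distributed values chance alone does this in about 1 of 20 groups. CPM was skewed between cells, with an SD above the mean in many groups, so the chance rate here is unknown. Whether more groups were picked out than by chance was therefore not tested. Groups in which too few cells held counts were not searched, so that many members carried by 1 cell lay outside the search. Such cells were found in 5 of the 29 groups searched. They were non-synchronized cell 18 for epha7 (305 CPM, the next at 122 CPM), non-synchronized cell 10 for epha3 (125 CPM, next 57.2 CPM), synchronized cell 14-1 for ephb2a (130 CPM, next 45.3 CPM), synchronized cell 9 for efna2a (153 CPM, next 77.0 CPM) and non-synchronized cell 15 for the ephrin-B sum (1070 CPM, next 389.5 CPM). The last is the cell with 1000.41 CPM of efnb2b. The 29 groups did not include efnb2b itself in non-synchronized cells, where the next cell held 7.21 CPM. Also not included were efna5a in non-synchronized cells (189 CPM in cell 5, next 0 CPM) and ephb4a in synchronized cells (185 CPM in cell 5, next 40.2 CPM).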

How the results depend on the processing

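No paired analysis was possible because no test was run and the label numbers name no fish. Numbers 5, 6 and 22 occur in both groups, and the deviations of these cells from their group means correlated at 0.08, -0.00034 and 0.05, against -0.13 to 0.13 for cells of unlike number. The signs of efna1a and efna1b held under all 31 alternatives run. Those that change only the filter could not alter these signs, and most of the others left out 1 cell each. With each cell left out in turn, log2 fold changes ran from -3.30 to 2.03 for efna5a (without non-synchronized 5), from -5.73 to 1.28 for efnb2b (without non-synchronized 15), from -2.39 to 0.22 for efnb3a (without non-synchronized 10), from -2.29 to 0.082 for epha2b (without non-synchronized 13) and from 2.31 to -0.28 for ephb4b (without synchronized 9). Leaving out the marker-rich libraries turned efna5a to 1.88, epha2b to 0.076, efna5b from -0.82 to 1.80 and ephb2b from 0.21 to -1.26, and moved epha4l from 0.10 to 3.47, and median CPM turned ephb2a to 1.57. Members at least 2-fold higher numbered 10 of 27 with median CPM and 10 of 27 without the marker-rich libraries, against 23.4% and 31.4% of all measured genes. Members at least 2-fold lower numbered 2 with median CPM, against 9.79%. Members found in 5 more synchronized cells numbered 0 with same-numbered cells averaged, at 5 counts, after thinning and without the marker-rich libraries, and 0 to 2 with any 1 cell left out. Members found in 5 more non-synchronized cells numbered 0 without the marker-rich libraries, where only 8 and 6 cells remained. Pathway genes higher past 2-fold numbered 22 of 89 with median CPM (23.4% of all genes), 22 of 89 without the suffixed libraries (27.7%) and 9 of 72 at a mean of 10 CPM or more (19%), and those lower 12 with median CPM (9.79%) and 11 with 10 CPM added (10.7%), of 89. The EphB receptor median ran from 0.076 to 2.08 with any 1 cell left out. Scaling moved the median of all genes from 0.06 by -0.11 with TMM and by -0.21 with poscounts, and the shares of genes past 2-fold to 24.9% higher and 25.3% lower, and to 24.0% and 27.9%. The ephrin-A class log2 fold change was then 1.45 and 1.38, and that of ephrin-B 0.06 and -0.09. With 10 cells a group and unknown fish, differences between fish and between states cannot be told apart.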
